A study of Homo sapiens with 4 samples.

Results

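The 10 genes described here encode ligands, receptors, latent binding proteins and the feedback inhibitor of transforming growth factor beta (TGF-beta) signaling: TGFB1, TGFB2, TGFB3, INHBA, LTBP1, LTBP2, TGFBR1, TGFBR2, TGFBR3 and SMAD7. They were chosen by name, with earlier results of these data known. All 10 were found among the 56304 different gene identifiers of the count table. The table holds bulk RNAseq counts of MV3 cells, an established human melanoma line classed in the labels as highly metastatic, which carried the nuclear reporter H2B-GFP in every sample. Spheroids of 50000 cells were grown in collagen I without any treatment, and on day 2 a 1 mm punch took out the core and a 3 mm punch the zone invaded around it. Each zone had 2 libraries, numbered 1 and 2. The sources used here give neither the number of spheroids per library nor separate cultures. P-values thus reflect only spread between these libraries, which may be technical. The fits also pool this spread over genes, so a p-value can understate how far its own gene's libraries disagree. Core libraries can hold some invading cells, since the cut did not separate cells by height.

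Total counts were 36363358 and 37591782 in the core and invasion zone libraries of replicate 1 and 14983135 and 11789243 in those of replicate 2. Values are normalized CPM, that is counts relative to the library total, scaled between libraries by the trimmed mean of M values, and serve to compare 1 gene between libraries. Levels of different genes are compared only as CPM per kilobase of exon (RPKM), with exons from GENCODE release 44. Mitochondrial transcripts took 1.06% to 1.72% of the counts. Of 10 melanocyte and melanoma markers, 3 reached 1 CPM in every library, MITF, CSPG4 and MCAM, while SOX10 and TYR had 0 counts in all 4 libraries, where 3 counts would correspond to 0.0801 to 0.252 CPM. Of 4 markers of dedifferentiated melanoma, the receptor AXL had 633 and 629 CPM in the core against 1224 and 1121 CPM in the invasion zone. SOX9 lay between 123 and 164 CPM and EGFR between 135 and 208 CPM, while NGFR had at most 2 counts in any library.

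TGF-beta ligands are secreted as latent complexes with their own propeptide, and a latent TGF-beta binding protein (LTBP) can tether this complex to the extracellular matrix until integrins or proteases release the ligand. The free ligand brings together the type II receptor TGFBR2 and the type I receptor TGFBR1, which phosphorylates SMAD2 and SMAD3. In melanoma the pathway is known both for growth arrest and for matrix production and invasion.

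Most of the 10 genes had more RNA in the core. They were chosen with earlier results of these data known, so shares of all genes given beside them are background and not a test. In 9 of 10 the invasion zone was lower in both replicates, against 40.9% of the 15529 genes tested, and INHBA was higher in both. For 7 of 10 both libraries of the invasion zone were below both of the core, against 30.3% of the genes tested, and for 1 of the 7, TGFBR3, the nearest libraries differed by less than the rounding of the values given here. Log2 fold changes are given for the invasion zone relative to the core, and their median was -0.87 for the 10 genes and -0.01 for all genes tested. The quasi-likelihood test of edgeR without a replicate term, with Benjamini-Hochberg adjustment over all genes and a 2-fold minimum, called 0 of 10, as it called 0 genes in the whole table (0.0%). At an unadjusted p under 0.05, 5 of 10 passed, all lower, against 13.2% of all genes tested that were lower by this rule. With the 2-fold minimum as well, 4 of 10 were lower and 0 higher, against 6.41% and 3.19% of all genes tested. DESeq2 called 3 of 10 lower and 0 higher without the block (3.44% and 2.27% of all genes) and 4 and 0 with it (4.83% and 2.76%). With the replicate number as a block, which reads same-numbered libraries as pairs although no source states that the number marks a shared spheroid, edgeR called 5 of 10 lower, namely LTBP1, TGFB3, TGFBR3, LTBP2 and TGFB2, and 0 higher, where 7.39% of all genes tested were called lower and 3.79% higher. Without the 2-fold minimum, the adjusted p of the blocked fit was under 0.05 for 8 of 10, all lower, against 20.1% of all genes that were lower by this rule. In bulk RNA, fewer cells that express a gene and less RNA per cell cannot be told apart.

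**Figure D1:**
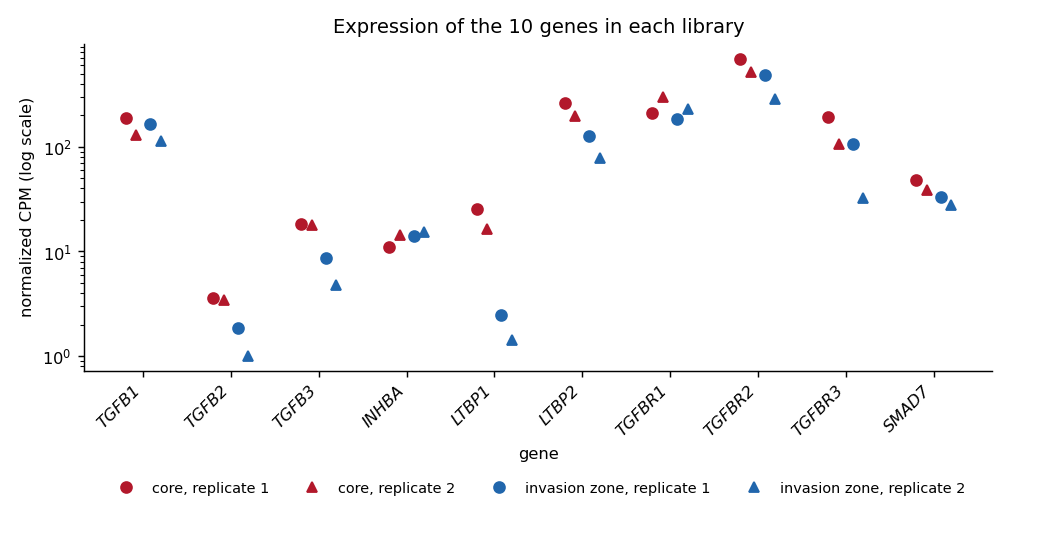
Normalized CPM on a log scale for each gene on the horizontal axis, with 1 point per library, circles for replicate 1, triangles for replicate 2, red for the core and blue for the invasion zone. LTBP1 shows the widest gap between the zones, from 16.5 to 25.2 CPM in the core and from 1.43 to 2.46 CPM in the invasion zone, whereas the points of TGFB1 and TGFBR1 overlap between zones.

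Among the ligands, TGFB1 was the abundant one and TGFB2 and TGFB3 were the ones called lower in the invasion zone with the replicate block. TGFB1 (ENSG00000105329, chromosome 19 of GRCh38, 41301587 to 41353922) encodes the most widely expressed isoform and had 189 and 129 CPM in core replicates 1 and 2 and 165 and 114 CPM in the invasion zone. Its zones overlapped, and the replicates differed more than the zones did. Its log2 fold change was -0.19 (standard error 0.26, 95% interval -0.84 to 0.46, adjusted p = 0.689). The value turned to 0.12 without core replicate 1 and to 0.05 without invasion zone replicate 2, and was -0.49 without invasion zone replicate 1. Fits with a library left out do not match the zones by replicate. Within replicates 1 and 2 the log2 difference was -0.19 and -0.18. With the block TGFB1 had an adjusted p of 0.078. After each library's trend on GC content and transcript length was removed, its log2 fold change was -0.02 with and without the block.

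TGFB3 (ENSG00000119699, chromosome 14, 75958097 to 75983011), the third isoform, had 18.4 and 17.9 CPM in the core against 8.62 and 4.80 CPM in the invasion zone. The core libraries were close to each other, and both invasion zone libraries were well below them. TGFB3 had a log2 fold change of -1.38 (standard error 0.30, adjusted p = 0.112) and passed with the replicate block (adjusted p = 0.0013) and in DESeq2 (adjusted p = 0.00312). In edgeR it also passed when core replicate 2 (-1.41) or invasion zone replicate 1 (-1.92) was left out, and it did not pass when core replicate 1 (-1.36, adjusted p = 0.142) or invasion zone replicate 2 (-1.08, adjusted p = 0.0868) was.

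TGFB2 (ENSG00000092969, chromosome 1, 218345336 to 218444619) had few reads, at 129 and 52 counts in the core and 70 and 12 counts in the invasion zone. These counts corresponded to 3.60 and 3.45 CPM in the core against 1.87 and 1.01 CPM in the invasion zone. Both invasion zone libraries were below both core libraries. Its log2 fold change was -1.16 (standard error 0.37, adjusted p = 0.146 without and 0.016 with the block), and DESeq2 did not call it with or without the block (adjusted p = 0.089 and 0.134). With 1 library left out TGFB2 ranged from -1.81 to -0.92 and did not pass, and the value of -1.81 came without invasion zone replicate 1. TGFB2 shares 1371 of its 6050 exonic bases with TGFB2-OT1 on its own strand and 701 with TGFB2-AS1 on the opposite strand. TGFB1 and TGFB3 share 215 and 163 bases with genes on the opposite strand. TGFB2-OT1 had 0 counts and TGFB2-AS1 at most 2 counts in any library, and the strand setting of the counting was not stated in the methods.

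The makeup of the 3 TGF-beta ligands does not depend on the scaling between libraries. Per exonic base, TGFB1 made up 93.4% and 90.8% of the ligand counts in the core and 96.3% and 97.0% in the invasion zone. TGFB3 made up 5.68% and 7.86% in the core and 3.14% and 2.55% in the invasion zone, and TGFB2 at most 1.31% in any library. The zones did not overlap for any of the 3 shares, and an exact two-sided permutation test gave p = 0.333 for each, the smallest that 2 against 2 libraries allow. TGFB2 and TGFB3 kept nearly the same ratio to each other, 0.169 and 0.166 in the core and 0.187 and 0.182 in the invasion zone, while the mean of TGFB3 itself was 18.1 CPM in the core against 6.71 CPM in the invasion zone.

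**Figure D2:**
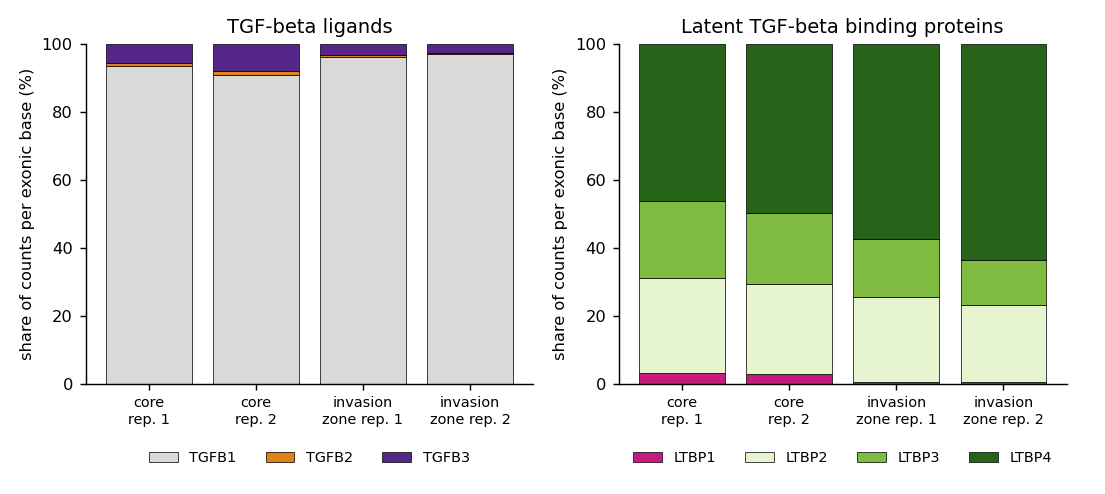
Share of counts per exonic base, in percent, for the 3 ligands (left) and for the 4 latent binding proteins (right), with 1 stacked bar per library. TGFB1 fills 90.8% to 97.0% of each ligand bar, and the LTBP1 segment at the bottom of the right panel takes 3.32% and 2.78% in the core and 0.595% and 0.514% in the invasion zone.

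INHBA (ENSG00000122641, chromosome 7, 41667168 to 41705834), whose product dimerizes to activin A, a ligand that also signals through SMAD2 and SMAD3, was the exception in direction. INHBA had 11.0 and 14.3 CPM in the core, against 14.1 and 15.3 CPM in the invasion zone. Core replicate 2 lay above invasion zone replicate 1, so the zones overlapped. For INHBA the log2 fold change was 0.23 (standard error 0.22, 95% interval -0.33 to 0.78, adjusted p = 0.562), and the block did not bring it past the threshold (adjusted p = 0.237). The value was 0.05 when core replicate 1 was left out, 0.42 when core replicate 2 was, and 0.06 after all libraries were thinned to the smallest total. INHBA shares 248 of its 8284 exonic bases with INHBA-AS1 on the opposite strand, which had 34 and 9 counts in the core and 10 and 0 in the invasion zone.

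LTBP1 had the largest difference of the 10 genes, about 10.0-fold. LTBP1 (ENSG00000049323, chromosome 2, 32946953 to 33399509) encodes the binding protein that carries latent TGF-beta into fibrillar matrix. It had 901 and 249 counts in the core and 92 and 17 counts in the invasion zone, or 25.2 and 16.5 CPM against 2.46 and 1.43 CPM. The lowest core library was thus several times above the highest invasion zone library. Within replicate 1 the log2 difference was -3.36 (exact 95% interval -3.68 to -3.05) and within replicate 2 it was -3.53 (-4.33 to -2.82), where the intervals cover counting error only and overlap. Over both replicates the log2 fold change was -3.32 (standard error 0.36, 95% interval -4.23 to -2.42), the 55th lowest among the 15529 genes tested. Its adjusted p was 0.112 without the block, 7.52e-05 with it and 2.84e-13 in DESeq2, and it passed in edgeR when any 1 of the 4 libraries was left out, at log2 fold changes from -3.88 to -2.98. It shares 249 of 7348 exonic bases with a gene on the opposite strand.

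LTBP2 (ENSG00000119681, chromosome 14, 74498183 to 74612378) is a matrix protein of the same family that does not bind latent TGF-beta itself. It had 260 and 195 CPM in the core against 128 and 78.4 CPM in the invasion zone, again without overlap. The log2 fold change was -1.14 (standard error 0.28), with an adjusted p of 0.118 without the block, 0.000132 with it and 0.00323 in DESeq2. In edgeR it passed when core replicate 2 (-1.33) or invasion zone replicate 1 (-1.54) was left out, and not when core replicate 1 (-0.91, adjusted p = 0.155) or invasion zone replicate 2 (-0.84, adjusted p = 0.0818) was. After each library's trend on GC content and transcript length was removed, the log2 fold change of LTBP2 was -0.97 with the block, under the 2-fold minimum. LTBP1 was lower relative to LTBP2 as well, at 0.120 and 0.104 of the LTBP2 level per exonic base in the core and 0.0238 and 0.0226 in the invasion zone. Relative to its ligand TGFB1, LTBP1 stood at 0.0592 and 0.0567 in the core and at 0.00661 and 0.00558 in the invasion zone (exact permutation p = 0.333 for both ratios, the smallest possible).

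Promoter sequences are shown for the 3 of the 5 genes lower with the block that share letters near a start site. In RefSeq promoter windows of GRCh38.p14, from 250 bases before to 50 bases after each annotated start, ACGTCA on either strand, which is part of the cAMP response element TGACGTCA bound by CREB and ATF factors, was found for 3 of the 10 genes, LTBP1, TGFB3 and TGFB2, and for 9.63% of the 27167 genes with a window. Shares of genes here and below do not account for the number of windows, which was 23 for the 10 genes and 34943 for the 27167 genes. The letters were picked after the sequences and the fold changes had been seen, so the overlap is a description and not a test. The 100 bases before the start are given 5′ to 3′ on the gene's strand, with ACGTCA and its reverse complement in capitals, for LTBP1 (chr2:32946853-32946952, plus strand), TGFB3 (chr14:75981996-75982095, minus strand) and TGFB2 (chr1:218345236-218345335, plus strand).
LTBP1: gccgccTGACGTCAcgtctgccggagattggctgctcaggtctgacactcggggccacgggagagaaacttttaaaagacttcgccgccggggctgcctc
TGFB3: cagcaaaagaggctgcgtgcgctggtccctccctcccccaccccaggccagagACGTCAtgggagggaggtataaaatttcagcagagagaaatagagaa
TGFB2: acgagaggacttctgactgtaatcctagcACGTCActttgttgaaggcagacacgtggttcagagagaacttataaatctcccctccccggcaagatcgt

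The LTBP1 stretch holds the complete palindrome TGACGTCA, found in 1.84% of the 34943 windows, with its first letter 94 bases before the start. In TGFB3 and TGFB2 the first letter of ACGTCA lay 47 and 71 bases before the start, upstream of the letters tataaa in both. RefSeq lists a second, more upstream TGFB3 start and 2 more LTBP1 starts, whose windows hold no such letters. Of the other letters searched on both strands, CAGACA, the core of a SMAD-binding repeat, was found for 4 of 10 genes (20.0% of all genes), ACGTG, the core of the hypoxia response element, for 6 of 10 (24.8%), TGANTCA, the AP-1 site, for 1 of 10 (9.39%) and the SMAD palindrome GTCTAGAC for 0 of 10 (0.258%). ACGTG can overlap ACGTCA where the letters run into each other, as the matches at 72 and 71 bases before the start do in TGFB2.

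Of the 3 receptors, TGFBR3 was called lower in the invasion zone with the block, and TGFBR1 and TGFBR2 were under the 2-fold minimum. TGFBR2 (ENSG00000163513, chromosome 3, 30606601 to 30694142), the ligand-binding kinase, was the most abundant of the 10 genes per exonic base, with 692 and 519 CPM in the core against 484 and 284 CPM in the invasion zone. The zones did not overlap, but the higher invasion zone library came close to the lower core library. TGFBR2 had a log2 fold change of -0.66 (standard error 0.30), with an adjusted p of 0.232 without and 0.000871 with the block, under the 2-fold minimum in both. Single libraries moved this value in both directions. TGFBR2 passed at -1.10 (adjusted p = 0.0258) without invasion zone replicate 1, and was at -0.32 (adjusted p = 0.671) without invasion zone replicate 2 and at -0.43 (adjusted p = 0.612) without core replicate 1.

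TGFBR3 (ENSG00000069702, chromosome 1, 91680343 to 91906335) encodes betaglycan, the co-receptor that presents TGF-beta 2 to TGFBR2. It had 192 and 107 CPM in the core against 107 and 32.6 CPM in the invasion zone, so core replicate 2 and invasion zone replicate 1 were level. The difference was clear only within replicates, with a log2 difference of -0.84 (exact 95% interval -0.90 to -0.79) in replicate 1 and -1.71 (-1.88 to -1.55) in replicate 2. These counting intervals do not overlap, so the 2 replicates differed in the size of the difference by more than counting error. The standard error with the block, given next, pools spread over genes and does not carry this disagreement in full. TGFBR3 had a log2 fold change of -1.09 (standard error 0.57, adjusted p = 0.294) without the block and -1.24 (standard error 0.17, adjusted p = 0.000973) with it. DESeq2 called it with the block (adjusted p = 1.92e-10) and not without (0.117), and edgeR called it when core replicate 2 (-1.45) or invasion zone replicate 1 (-2.20) was left out. When core replicate 1 or invasion zone replicate 2 was left out, TGFBR3 was at -0.60 (adjusted p = 0.593) and -0.49 (adjusted p = 0.469).

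TGFBR1 (ENSG00000106799, chromosome 9, 99104038 to 99154192), the type I kinase, had 209 and 302 CPM in the core against 186 and 229 CPM in the invasion zone. Its zones overlapped, and unlike most of the 10 genes it was higher in replicate 2 than in replicate 1. For TGFBR1 the log2 fold change was -0.30 (standard error 0.22, adjusted p = 0.439), and -0.28 with the block (adjusted p = 0.0256), which is under the 2-fold minimum. Without the block, the value was -0.00 when core replicate 2 was left out and -0.53 when core replicate 1 was. Such fits do not match the zones by replicate. Within replicates the log2 difference was -0.17 and -0.40. The ratio of TGFBR1 to TGFBR2 per exonic base was 0.259 and 0.499 in the core and 0.328 and 0.691 in the invasion zone, so it was higher in the invasion zone within each replicate while the zones overlapped (exact permutation p = 0.667).

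SMAD7 (ENSG00000101665, chromosome 18, 48919853 to 48950965) encodes the inhibitory SMAD that is itself induced by TGF-beta and blocks TGFBR1. It had 47.9 and 38.4 CPM in the core against 32.9 and 28.0 CPM in the invasion zone. The zones did not overlap, and the log2 difference was -0.54 within replicate 1 and -0.45 within replicate 2, with overlapping counting intervals. The log2 fold change was -0.50 (standard error 0.19), with an adjusted p of 0.175 without and 0.00586 with the block, so SMAD7 passed neither rule that asks for 2-fold. With 1 library left out the value ranged from -0.64 to -0.32, the latter without core replicate 1.

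**Figure D3:**
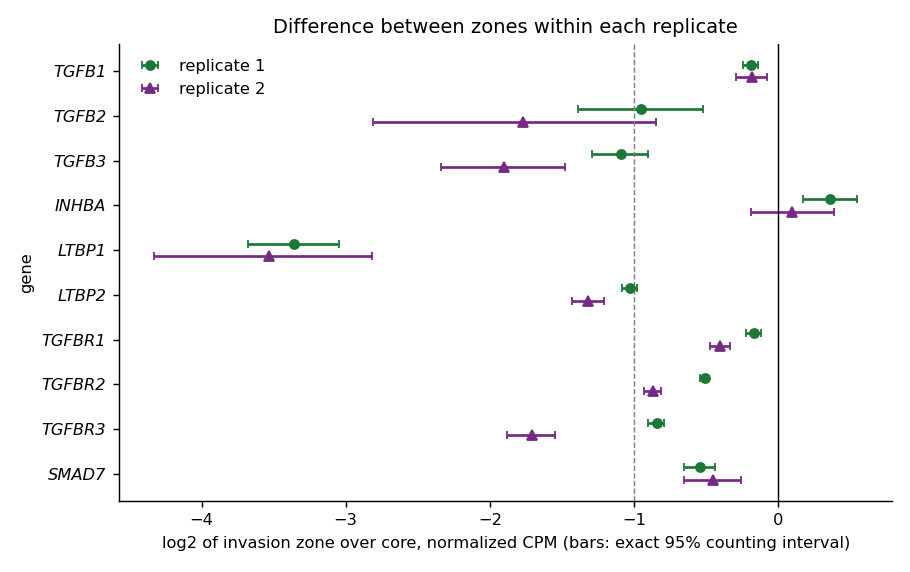
Log2 ratio of normalized CPM, invasion zone to core, for each gene, with 1 point per replicate and bars for the exact 95% counting interval. The dashed line marks a 2-fold lower level in the invasion zone. LTBP1 lies at -3.36 and -3.53, INHBA alone lies above 0 in both replicates, and replicate 2 lies further below 0 than replicate 1 for TGFB2, TGFB3, LTBP1, LTBP2 and the 3 receptors.

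Within replicates, the size of the difference varied for most of the lower genes, with replicate 2 being the less deeply sequenced pair. The p-values with the block pool spread over genes and can understate this variation. TGFB3 had a log2 difference of -1.09 (exact 95% counting interval -1.29 to -0.90) in replicate 1 and -1.90 (-2.34 to -1.48) in replicate 2. LTBP2 stood at -1.03 (-1.08 to -0.98) and -1.32 (-1.43 to -1.21), and TGFBR2 at -0.51 (-0.54 to -0.49) and -0.87 (-0.93 to -0.81). TGFBR1 was at -0.17 (-0.22 to -0.12) and -0.40 (-0.47 to -0.33). For these genes, as for TGFBR3 above, the intervals of the replicates did not overlap. They overlapped for TGFB2, at -0.95 (-1.39 to -0.52) and -1.77 (-2.81 to -0.85), and for TGFB1, at -0.19 and -0.18. INHBA was at 0.36 (0.17 to 0.55) in replicate 1 and at 0.10 (-0.19 to 0.39) in replicate 2, so only in replicate 1 did its interval lie above 0.

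Compared per length, the order of mean levels over all libraries was TGFBR2, TGFB1, TGFBR1, LTBP2, TGFBR3, SMAD7, TGFB3, INHBA, LTBP1 and TGFB2. In the core the means ran from 88.4 RPKM for TGFBR2 and 48.8 RPKM for TGFB1 down to 0.583 RPKM for TGFB2. LTBP1, at 2.84 RPKM, was above INHBA, at 1.52 RPKM, in the core. In the invasion zone TGFBR2 had 56.1 RPKM, INHBA 1.77 RPKM, TGFB3 1.28 RPKM, LTBP1 0.264 RPKM and TGFB2 0.238 RPKM. The RPKM of TGFBR1 was between 26.1 and 37.8 in the core and that of LTBP2 between 21.5 and 28.7, so these neighbours overlapped in the core, as LTBP2 did with TGFBR3 (12.5 to 22.3 RPKM). In the invasion zone TGFBR2 (41.5 and 70.7 RPKM) overlapped TGFB1 (34.9 and 50.6 RPKM), LTBP2 overlapped TGFBR3, and TGFBR3 overlapped SMAD7 (7.10 and 8.33 RPKM). TGFB3 was above INHBA in both core libraries (3.52 and 3.43 against 1.33 and 1.72 RPKM) and below it in both invasion zone libraries (1.65 and 0.918 against 1.70 and 1.85 RPKM), in replicate 1 by little.

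The rest of the pathway was examined in 95 other genes in lists by role, of which 76 were expressed enough to be tested. These lists too were chosen with earlier results of these data known, so shares of all genes beside them are background and not a test. edgeR without the block called 0 of 76, at an unadjusted p under 0.05 with 2-fold change 6 were higher and 14 lower, and DESeq2 called 7 higher and 11 lower. With the replicate block 7 were higher and 14 lower. Over all genes tested, 3.19% were higher and 6.41% lower at the unadjusted p, 2.27% and 3.44% in DESeq2, and 3.79% and 7.39% with the block. The 76 genes had a median log2 fold change of -0.32, against -0.01 for all genes tested.

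Of the latency and activation list, 15 of 19 genes were tested, and with the block 0 were higher and 5 lower (3.79% and 7.39% of all genes tested), with a median log2 fold change of -0.64 (-0.01 for all genes). The 5 were ITGB3 (log2 fold change -3.54), ITGB8 (-2.19), EMILIN1 (-1.83), MMP2 (-1.68) and LTBP3 (-1.45). DESeq2 did not call ITGB8 (adjusted p = 0.158) and called the other 4. ITGB8 encodes the partner of integrin alpha V in the receptor that binds latent TGF-beta, and it had 184 and 84.3 CPM in the core against 47.5 and 9.59 CPM in the invasion zone. ITGB3 pairs with the same alpha chain and was low, with 445 counts summed over the core and 41 over the invasion zone, a ratio of 10.5 (exact 95% interval 7.64 to 14.9, counting error only). Of its 6829 exonic bases, 2266 also belong to a second gene model on that strand, and it is 1 of the genes that the study picked from these libraries. LTBP3, which like LTBP1 binds latent TGF-beta, had 268 and 192 CPM in the core against 111 and 56.8 CPM in the invasion zone, while LTBP4 was at 388 and 326 against 261 and 196 CPM (log2 fold change -0.64, adjusted p = 0.139, named after its values were seen). Per exonic base, LTBP1 made up 3.32% and 2.78% of the 4 LTBP genes in the core and 0.595% and 0.514% in the invasion zone.

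Of the other receptors and co-receptors, 9 of 11 were tested, with a median of -0.54 (-0.01 for all genes). With the block 0 were called in either direction, against 3.79% higher and 7.39% lower over all genes tested. The largest differences were those of the type I receptor ACVR1 (-0.82), ACVR1C (-0.75, at most 37 counts in a library), the activin type I receptor ACVR1B (-0.63), the co-receptor endoglin, ENG (-0.60), and CD109 (-0.54).

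Of the other ligands and antagonists, 5 of 14 were tested, with a median of -0.63 (-0.01 for all genes). With the block 1 was higher and 2 were lower, against 3.79% and 7.39% of all genes tested. FST, which encodes the activin antagonist follistatin, had 4.86 and 8.49 CPM in the core against 15.7 and 18.6 CPM in the invasion zone (log2 fold change 1.39, adjusted p = 0.115 without and 0.000709 with the block). FSTL3, a second activin-binding protein, was at 42.2 and 45.9 against 25.7 and 31.4 CPM (-0.63), and GDF11 was at 0.17. INHA and BGN, the 2 lower genes, had few reads, at 64 counts in the core against 20 in the invasion zone for INHA and 25 against 1 for BGN, and DESeq2 gave neither an adjusted p. The ratio of core to invasion zone was 3.11 (exact 95% interval 1.85 to 5.42) for INHA and 24.3 (3.97 to 996) for BGN.

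Of the SMADs and their regulators, 21 of 21 were tested and the median was -0.09 (-0.01 for all genes). With the block 1 was called higher and 0 lower, against 3.79% and 7.39% of all genes tested. SMURF2, the ubiquitin ligase that works with SMAD7 on the receptors, had 136 and 178 CPM in the core against 286 and 340 CPM in the invasion zone (log2 fold change 1.00, adjusted p = 0.112 without and 0.000117 with the block). NEDD4L, another ligase of the family, was at 0.65, the corepressor TGIF1 at -0.94, SMAD6 at -0.59 and PMEPA1 at -0.59, none of them past the 2-fold minimum. The signal transducers SMAD2 (-0.21), SMAD3 (-0.21) and SMAD4 (0.06), named after their values were seen, were called neither by edgeR, with or without the block, nor by DESeq2 without it.

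Of the target gene list, 26 of 30 were tested, and with the block 5 were higher and 7 lower (3.79% and 7.39% of all genes tested), with a median of -0.58 (-0.01 for all genes). Among the higher ones were ID3 (1.95), ID1 (1.91), CTGF (1.49) and CYR61 (1.22), of which CTGF and CYR61 were named after their values were seen. ID1 and ID3 are also targets of bone morphogenetic proteins, and CTGF and CYR61 also of YAP. Whether TGF-beta drove any gene of the list, higher or lower, was not tested. ID3 had 59.0 and 129 CPM in the core against 309 and 412 CPM in the invasion zone. Among the lower ones, BHLHE40 had 67.6 and 72.3 against 16.9 and 7.24 CPM (-2.48), IGFBP3 30.4 and 31.4 against 6.46 and 11.9 CPM (-1.81) and CDKN2B, a cell cycle inhibitor, 40.9 and 41.8 against 17.5 and 10.2 CPM (-1.54). The other 4 lower genes, named after their values were seen, were matrix genes, namely COL1A1 (-1.51), COL5A1 (-1.40), TGFBI (-1.39) and FN1 (-1.34). ID1, COL1A1 and FN1 are genes that the study picked from these libraries and are no independent evidence of a direction.

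**Figure D4:**
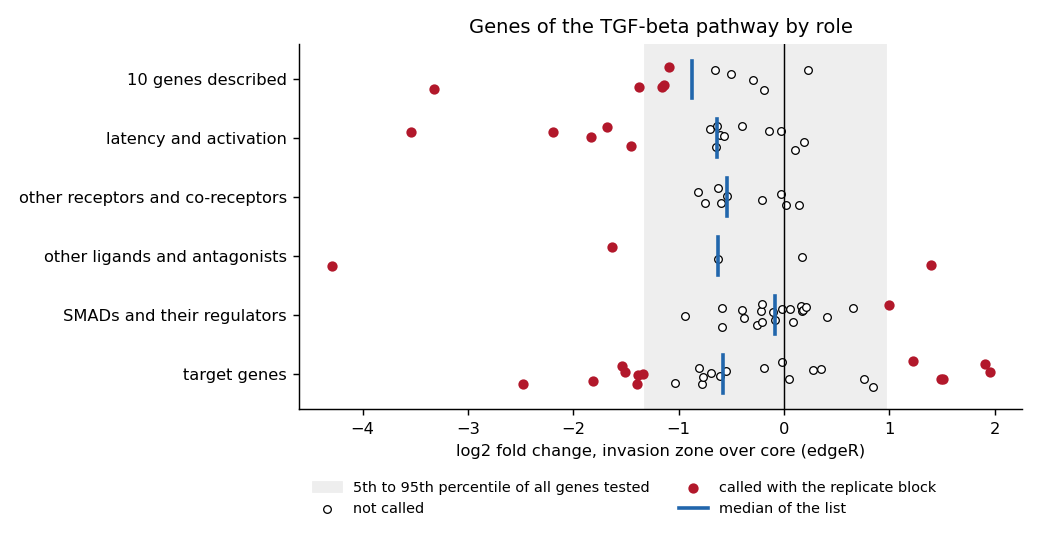
Log2 fold change, invasion zone relative to core (edgeR without the block) for each gene tested, 1 row per list, with filled points for genes called with the replicate block and a blue bar at the median of each list. The grey band spans the 5th to the 95th percentile of all genes tested, -1.32 to 0.97. The 10 genes described lie mostly left of 0 with LTBP1 at -3.32, the SMAD list is centred near 0, and the target genes have points beyond the band on both sides.

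The methods name no cells other than MV3 in these cultures. Some genes used as markers of other cell types still differed between the zones. Of 5 fibroblast markers, LUM and DCN had 0 counts in all libraries, and the summed level of the list was 97.2 and 59.4 CPM in the core against 38.7 and 14.1 CPM in the invasion zone, nearly all of it PDGFRA. The 4 endothelial markers summed to 18.3 and 7.63 CPM in the core against 5.76 and 0.926 CPM in the invasion zone, mainly PECAM1, with KDR at 0 counts. The 5 leukocyte and 4 epithelial markers stayed under 1 CPM in sum in every library, with CD3E at 0 counts. The part of these genes in the differences above was not tested.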

How the data were processed

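Bulk RNAseq of 4 libraries was analysed, 2 per zone. Ribosomal reads were discarded by the authors (Bowtie), the rest was aligned to hg38 (STAR) and unique alignments were tallied by gene (HTSeq-count). The deposited values are raw counts. Tool versions, annotation release and strandedness were not given in the sources used here. Of 56306 rows, 2 repeated identifiers without counts were left out. In R 4.3.3, edgeR 4.0.16 (filterByExpr by zone with 10 counts and 15 in total, TMM, glmQLFit and glmQLFTest) compared the zones over 15529 genes, called at a Benjamini-Hochberg adjusted p under 0.05 and at least 2-fold change. Standard errors were derived from the F statistic. DESeq2 1.42.0 and limma 3.58.1 were alternatives.

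The protocol takes the core and its corresponding invasion zone from a dissected spheroid, so same-numbered libraries were read as pairs, although no source states that the number marks a shared spheroid. They deviated together from their zone means (correlation 0.584 across genes, 2 pairs). Libraries of 1 zone were no duplicates (chi-square per degree of freedom 37.9 and 35.2).

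The genes and lists were chosen with earlier results of these data known. Named beyond the 10 genes were at most 5 genes per list, those with the largest absolute log2 fold change among genes with 10 counts at the median library size, and besides them the genes described as named after their values were seen. Positions, exon lengths and overlaps came from GENCODE release 44, on the genome build of the alignment, and promoters from RefSeq (GRCh38.p14), with all 10 genes matched. The procedure was also run on simulated counts with planted changes. Their spread between libraries was chosen and not estimated from these data, so the run does not show how well the fits do here. Python 3.11.15 and matplotlib 3.10.9 were used for the figures. The values of 1 target gene are not reported here.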

Additional observations from a re-analysis of the deposited data

How the results depend on the processing

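No gene in the table, of the 10 described or of the 76 other pathway genes was called in either direction by edgeR without the block, and the counts stayed at 0 with RLE scaling, raw library totals, at least 10 counts in every library, limma voom, the legacy quasi-likelihood form, no fold change minimum, thinning to the smallest library and the GC content and length offset. The numbers called otherwise follow, for all genes higher and lower, for the 10 genes lower (0 were higher in each), and for the other pathway genes higher and lower. Without a count filter they were 81 and 191, 1, and 4 and 7. With the replicate block, which pairs same-numbered libraries, they were 588 and 1147, 5, and 7 and 14, with the block in DESeq2 428 and 750, 4, and 7 and 12, and with the block and the GC content and length offset 631 and 1131, 4, and 6 and 15. DESeq2 gave 353 and 534, 3, and 7 and 11, and with unadjusted p 444 and 840, 5, and 7 and 13. Unadjusted p in edgeR gave 495 and 995, 4, and 6 and 14. Leaving out 1 library at a time gave from 8 to 693 and from 108 to 969 for all genes, from 1 to 5 for the 10 genes, and from 3 to 7 and from 5 to 17 for the other pathway genes, on the assumption that a lone library varies as much as the other zone's libraries. Fewer were lower without core replicate 1 or invasion zone replicate 2 than without core replicate 2 or invasion zone replicate 1. This held for the 10 genes and for all genes tested alike. The cause of these changes was not tested. TGFB1 was the only 1 of the 10 genes whose direction turned, with values from -0.49 to 0.12 over the libraries left out. These fits do not match the zones by replicate, and within replicates TGFB1 was at -0.19 and -0.18. The order of the genes by level per length moved for 0 to 2 genes with a library left out, and for 0 with the length of the longest transcript. Depth limits TGFB2 and LTBP1 in invasion zone replicate 2, at 12 and 17 counts.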
